A study of Mus musculus with 8 samples.

Results

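The 10 genes described here code for the neurofilaments and the axonal microtubule proteins of dorsal root ganglion (DRG) neurons: Nefl, Nefm, Nefh, Ina, Prph, Map1b, Map1a, Mapt, Tubb3 and Stmn2. They were chosen by name from the 24421 genes of the deposited count table, all 10 were found, and all 10 were among the 17328 genes that passed the filter on low counts. RNA was sequenced from L3 to L5 ganglia on the side of the left hind paw, from C57BL/6J mice (males, per the study's methods) without a transgene or mutation named in the labels. The groups were the naive ganglia at 0d, taken before any injection, and ganglia taken 1, 3 and 30 days (1d, 3d, 30d) after 20 µL of 1% carrageenan was injected into the left hind paw, a model of inflammatory pain. The libraries numbered 2 per time point, each a pool of ganglia from 2 to 3 mice, so p-values measure the spread between pools and not between single animals. The design text gives an age of 8 weeks at injection, and the study's methods a wider range of ages. There was no vehicle injection among the groups, so the injection itself and the carrageenan cannot be told apart, nor can the 30 days of ageing and the late effect at 30d. The labelled cell type is DRG neurons, but the RNA came from whole dissected ganglia, in which fewer cells of a type and less RNA per cell cannot be told apart.

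Neurofilaments are the intermediate filaments of axons, built from a light, a medium and a heavy subunit together with alpha-internexin or peripherin, and their amount sets the calibre of large myelinated axons. Microtubules are the tracks of axonal transport. They are assembled from alpha- and beta-tubulin, stabilized and spaced by microtubule-associated proteins such as MAP1A, MAP1B and tau, and made more dynamic by stathmins. Cutting the axon of a sensory neuron is known to lower neurofilament mRNA and to raise mRNAs of growth-related tubulins and stathmins, which makes these genes a common readout of axonal damage.

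All of these genes were expressed in every library, and edgeR called none of them at an adjusted p under 0.05 in the 5 pairs of time points tested or in the joint test of all 4. DESeq2 called Map1a at 30d against 0d, where it called 1.06% of all tested genes, and Tubb3 at 30d against 3d (2.18% of all genes) and in the joint test (2.95%). Together they held between 2.92% and 3.13% of the counts of a library. A gene's highest library was 1.12 times its lowest in the median of the 10 genes, against 1.27 times in the median of the 16840 tested genes for which the ratio was taken. Among the 10, this ratio was smallest for Mapt and largest for Map1b. The 10 genes had at least 2292 counts in every library, while the full set holds genes of far lower counts and was not matched for level.

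The levels of different genes were compared per kb of counted exon, in CPM per kb, CPM being counts scaled to library size. At 0d Nefl stood first of all 17328 genes, with 3403 ± 112 CPM per kb (SD, n = 2). Among the 10 genes Tubb3 followed with 1635 ± 36.4 CPM per kb (SD, n = 2), rank 6 of all tested genes, and Nefm with 1442 ± 96.4 CPM per kb (SD, n = 2), rank 8. Next came Prph with 979 ± 37.6, Nefh with 868 ± 53.7 and Stmn2 with 780 ± 15.7 CPM per kb (SD, n = 2 each), and all of them ranked among the first 28 genes. Map1b had 543 ± 66.3 CPM per kb (SD, n = 2), rank 54, and Map1a 188 ± 12.8, rank 278. Mapt, at 83.0 ± 0.122 CPM per kb (SD, n = 2), and Ina, at 22.5 ± 0.611 CPM per kb (SD, n = 2), were far lower, with ranks 870 and 3562. The level of Nefl was 2.08 times that of Tubb3 and 151 times that of Ina. The order of the 10 genes was the same in all 8 libraries, and no gene's range over the 8 libraries overlapped that of its neighbour in the order. The counted exons of Nefl end 1358 bases, and those of Ina 981 bases, before the end of the GENCODE vM21 gene, which bears on the lengths used for these 2 genes. The GENCODE gene of Nefm reaches 36955 bases past the counted end, beyond Nefl, with 5782 bases of exon in all against 3230 counted, so its level per kb rests on the shorter model.

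**Figure D1:**
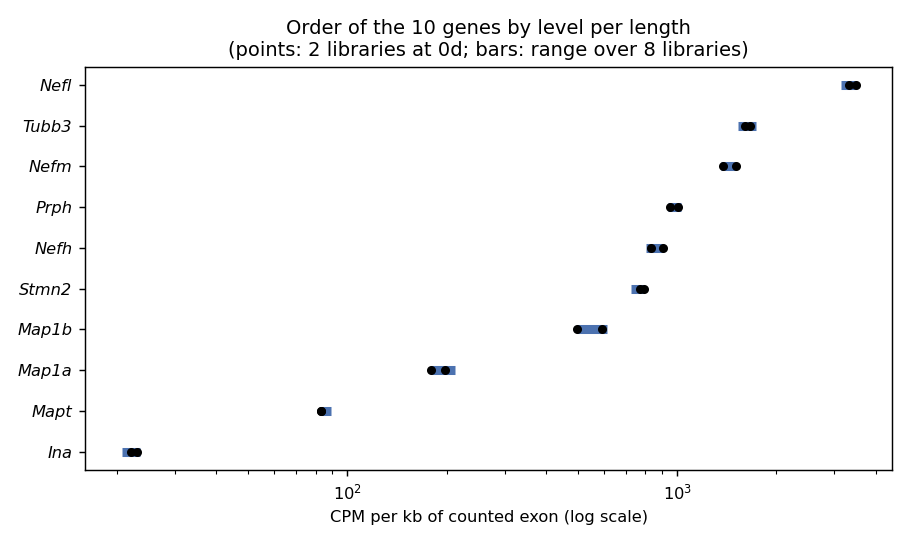
Level per length of the 10 genes, as CPM per kb of counted exon on a log axis. Points are the 2 libraries at 0d and bars span the lowest to the highest of the 8 libraries; Nefl lies highest, Ina lowest, and no bar overlaps the next.

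The promoters are shown for 4 genes whose level per kb differed up to 43.4-fold at 0d, namely Prph and Ina, 2 intermediate filament genes of high and of low level, and the paralogs Map1b and Map1a. They are the 100 bases before the transcription start in RefSeq (GRCm38.p6), 5′ to 3′ on the gene's strand, with capitals marking the letters of the TATA box, TATAA, those of the CCAAT box, CCAAT, and those of the GC box, GGGCGG, searched on both strands. A RefSeq entry was matched for 5 of the 10 genes; the window of the fifth, Tubb3, lies inside an annotated exon and is not shown. The windows are chr19:47014581-47014680 (+ strand) for Ina, chr15:99055074-99055173 (+ strand) for Prph, chr13:99516603-99516702 (- strand) for Map1b and chr2:121289502-121289601 (+ strand) for Map1a.
Ina: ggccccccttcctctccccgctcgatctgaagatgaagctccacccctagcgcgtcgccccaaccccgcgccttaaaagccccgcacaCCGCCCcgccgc
Prph: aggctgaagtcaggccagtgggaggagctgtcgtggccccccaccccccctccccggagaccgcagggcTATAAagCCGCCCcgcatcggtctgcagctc
Map1b: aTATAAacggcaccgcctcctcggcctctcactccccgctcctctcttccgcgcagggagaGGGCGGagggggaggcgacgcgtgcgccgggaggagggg
Map1a: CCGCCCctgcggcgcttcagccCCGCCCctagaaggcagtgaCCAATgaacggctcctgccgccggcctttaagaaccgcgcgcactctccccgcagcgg
The letters GGGCGG were found in 4 of these 4 windows and in 24.7% of 32851 mouse promoter windows of the same length. TATAA was found in 2 of them, Prph and Map1b, against 10.2% of all windows, and CCAAT in 1, Map1a, against 18.9%. No match overlapped another. All 4 windows were rich in GC, at 70.0% or more.

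Of the neurofilament triplet, Nefl (chromosome 14 of mm10, 68083884 to 68087737, + strand), the light subunit on which the filament is built, had 6969 and 6651 CPM at 0d, 6535 and 6573 CPM at 1d, 6685 and 6556 CPM at 3d, and 6297 and 6517 CPM at 30d. Both 30d libraries and both 1d libraries lay below both 0d libraries, and the 3d libraries overlapped those at 0d. Its log2 fold change (log2FC) against 0d was -0.055 at 1d, -0.041 at 3d and -0.088 at 30d, each with a standard error (SE) of 0.035. At 30d this was a difference of -5.91%, with a 95% interval of -10.6% to -0.958%. It did not pass the threshold over all genes (adjusted p = 0.332, edgeR's quasi-likelihood test with Benjamini-Hochberg adjustment, unadjusted p = 0.0231). Without the first 0d library the log2FC at 1d, 3d and 30d was -0.020, -0.0036 and -0.051. Without the second it was -0.089, -0.074 and -0.12.

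Nefm (chromosome 14, 68119545 to 68125004, - strand), the medium subunit and a close neighbour of Nefl on the chromosome, had 4878 and 4438 CPM at 0d, 4529 and 4453 CPM at 1d, 4602 and 4586 CPM at 3d, and 4390 and 4458 CPM at 30d. The first 0d library was the highest of the 8, and the second lay within the range of the 30d libraries. The log2FC of Nefm was -0.053 at 1d, -0.020 at 3d and -0.074 at 30d (SE 0.041 each). Of its counted exon length, 33.3% is shared with the gene A230070E04Rik, and reads there were counted for both genes.

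Nefh (chromosome 11, 4938756 to 4948064, - strand) codes for the heavy subunit, whose phosphorylated tail spaces the filaments of large axons. It had 3618 and 3315 CPM at 0d, 3363 and 3370 CPM at 1d, 3515 and 3403 CPM at 3d, and 3217 and 3412 CPM at 30d. Its libraries overlapped between 0d and every later time point, and its log2FC was -0.042, -0.0032 and -0.065 at 1d, 3d and 30d (SE 0.043 each). Its exons share 425 bases, 10.7% of the counted length, with Ap1b1.

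The 3 subunits kept nearly fixed proportions within each library, a comparison that does not depend on library scaling. Per kb, Nefm was between 0.413 and 0.434 of Nefl, Nefh between 0.2498 and 0.264 of Nefl, and Nefh between 0.593 and 0.619 of Nefm. The highest ratio exceeded the lowest by a factor of 1.05, 1.05 and 1.04. The extremes did not separate the time points, since the lowest and the highest ratio of Nefm to Nefl were the second and the first 0d library.

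The genes whose pattern over the 8 libraries was most like that of the triplet were Mag, Ctnna1, Fscn1, Itih5 and Ugt8a, taken by Pearson's r between log2 CPM and the mean log2 CPM of the triplet among 6325 genes that averaged at least 32 CPM. The r values were 0.986, 0.969, 0.959, 0.947 and 0.942 over 8 libraries that share the same scaling. Being the highest of 6325 candidates over 8 libraries, such values are in part a result of the choice, and no test was made of them. Mag, a myelin protein of Schwann cells, had 44.2 and 32.6 CPM at 0d, 31.5 and 31.3 CPM at 1d, 36.4 and 35.0 CPM at 3d, and 27.7 and 31.9 CPM at 30d. Ugt8a, an enzyme that makes myelin lipids, ran from 150 CPM in the first 0d library to 61.4 in the first 30d library. These were the highest and the lowest libraries of the triplet sum as well, 15465 and 13903 CPM. The other 7 genes had r values between -0.16 and 0.43.

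Beside the triplet stand the Schwann cell markers (Mbp, Pmp22, Prx, Mag and Egr2), a list that holds Mag itself. Their summed level was 5672 and 4304 CPM at 0d, 4219 and 4317 CPM at 1d, 4967 and 4931 CPM at 3d, and 3183 and 4334 CPM at 30d. The first 0d library also held the highest sum of fibroblast markers, 1917 CPM against 1288 to 1410 in the others, and of skeletal muscle markers, 127 CPM against 18.0 to 105. The first 30d library held the most red blood cell RNA, 515 CPM against 141 to 282. Hba-a1 and Hba-a2 of this list had the same value in every library, 156 CPM each in this one, and the sum counts both. The part of these differences in the values of the triplet was not tested. For Nefl, Nefm and Nefh alike, the first 0d library was the highest of all and the first 30d library the lowest. Leaving both out therefore moves the difference upward whatever its cause. Without both, a lone library stayed at 0d and at 30d. The log2FC at 30d was then -0.029 for Nefl, 0.0064 for Nefm and 0.041 for Nefh. Without the first 0d library alone it was -0.051 for Nefl, -0.0021 for Nefm and 0.0020 for Nefh.

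**Figure D2:**
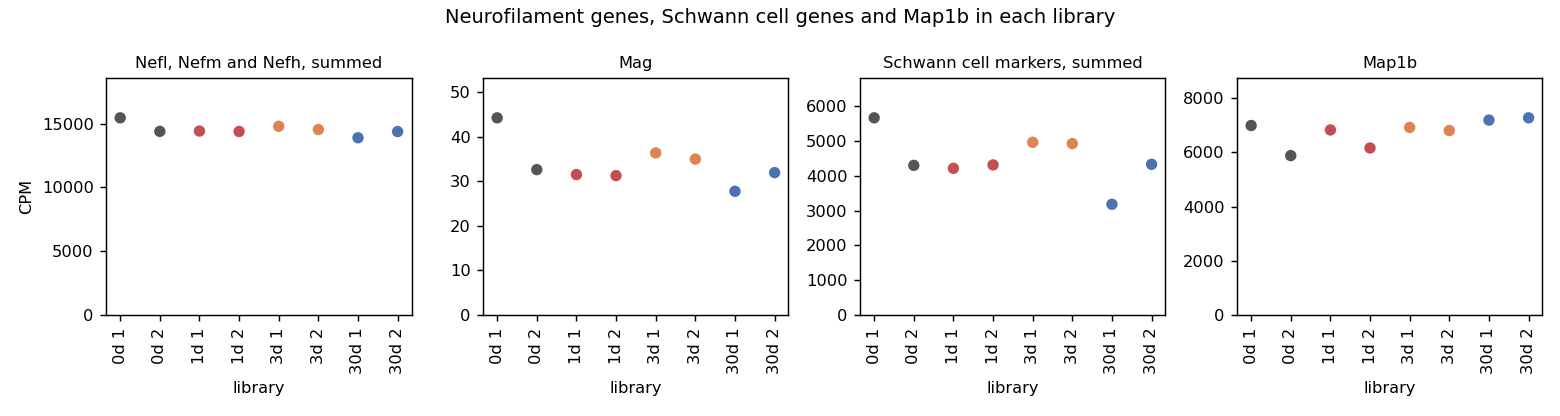
CPM in each of the 8 libraries of the triplet sum, of Mag, of the 5 Schwann cell markers summed, and of Map1b. Each point is 1 library, coloured by time point. Mag was chosen for its likeness to the triplet and is 1 of the 5 markers. The first 0d library is highest and the first 30d library lowest in the first 3 panels, while Map1b is lowest in the second 0d library.

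Alpha-internexin and peripherin are the other intermediate filament proteins of peripheral neurons, and neither gene was called in any comparison. Ina (chromosome 19, 47014698 to 47024346, + strand), which codes for alpha-internexin and is best known from developing and central neurons, had 49.96 and 51.9 CPM at 0d, 49.5 and 52.9 CPM at 1d, 47.7 and 47.0 CPM at 3d, and 48.0 and 46.6 CPM at 30d. Both 3d and both 30d libraries lay below both 0d libraries, by a log2FC of -0.11 (SE 0.061) each time. The 95% interval at 30d ran from -15.1% to 1.64%. Of its counted exons, 492 bases or 21.8% are shared with Nt5c2, which was itself at 50.9 to 60.9 CPM, and reads in the shared stretch were counted for both genes.

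Prph (chromosome 15, 99055174 to 99058978, + strand) codes for peripherin, most abundant in small unmyelinated sensory neurons. It had 1776 and 1875 CPM at 0d, 1823 and 1914 CPM at 1d, 1874 and 1839 CPM at 3d, and 1771 and 1747 CPM at 30d. The 30d libraries lay just below the lower 0d library, and below both 3d libraries. Its log2FC was -0.054 at 30d against 0d and -0.078 at 30d against 3d (SE 0.039 each), the latter with an interval from -10.6% to 0.338%. Without the first 0d library the value against 0d was -0.090, and without the second it was -0.014. The ratio of Prph to Nefl per kb was lowest in the first 0d library, 0.273, and highest in the second 1d library, 0.312. Beside it, the summed markers of small unmyelinated-fibre neurons were highest in the 3d libraries, 4140 CPM in both, and lowest in the second 30d library, 3499 CPM; their part in the values of Prph was not tested.

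Of the microtubule proteins, the MAP1 pair had the largest positive differences at 30d. Map1b (chromosome 13, 99421464 to 99516602, - strand) codes for MAP1B, which keeps axonal microtubules dynamic during growth and remains abundant in adult sensory neurons. It had 6989 and 5878 CPM at 0d, 6826 and 6160 CPM at 1d, 6919 and 6805 CPM at 3d, and 7190 and 7273 CPM at 30d. Both 30d libraries were above all others, but the 0d libraries were far apart, and the log2FC of 0.17 had an SE of 0.085 (edgeR adjusted p = 0.491). Its interval, from -2.66% to 29.8%, was the widest of the 10 genes.

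Map1a (chromosome 2, 121289602 to 121310832, + strand), the paralog that predominates in mature neurons and stabilizes microtubules, had 2353 and 2136 CPM at 0d, 2402 and 2305 CPM at 1d, 2410 and 2375 CPM at 3d, and 2511 and 2516 CPM at 30d. Both 3d and both 30d libraries lay above both 0d libraries, and the 30d libraries were the highest of the 8. The log2FC was 0.068, 0.092 and 0.16 at 1d, 3d and 30d (SE 0.043 each). Without the first 0d library it was 0.14 at 1d and 0.17 at 3d, and without the second 0.00036 and 0.024. At 30d the level was 1.12 times that at 0d, with an interval of 5.07% to 19.4% higher, at an unadjusted p of 0.00185 and an edgeR adjusted p of 0.161, so Map1a was not called. DESeq2 called it (adjusted p = 0.0386), as did the edgeR fit without the filter on low counts (adjusted p = 0.0344).

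Without the first 0d library, the log2FC at 30d was 0.30 for Map1b and 0.24 for Map1a, and both genes were called (edgeR adjusted p = 0.0343 and 0.0321), as were 0.444% of all genes. Without the second 0d library it was 0.049 and 0.095, and neither was called. Both are also long mRNAs, with 11852 and 11912 bases of counted exon, and when a smooth trend of the counts with gene length was removed from each library, their log2FC was 0.088 and 0.079. The ratio of Map1b to Map1a per kb was between 2.69 and 2.99 in all libraries, and its value at 30d, 2.88 and 2.90, lay within the range at 0d, 2.77 to 2.99.

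Mapt (chromosome 11, 104231436 to 104332089, + strand) codes for tau, which binds and spaces axonal microtubules. It had 447 and 446 CPM at 0d, 480 and 460 CPM at 1d, 464 and 472 CPM at 3d, and 458 and 446 CPM at 30d. The 1d and 3d libraries lay above both 0d libraries, by a log2FC of 0.072 and 0.067 (SE 0.038 each), and the 30d libraries overlapped those at 0d. Mapt had the largest log2FC of the 10 genes at 1d, with an interval from -0.664% to 11.3%.

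Tubb3 (chromosome 8, 123411564 to 123422010, + strand) codes for the neuronal beta-tubulin isotype. It had 2773 and 2862 CPM at 0d, 2752 and 2993 CPM at 1d, 2985 and 2962 CPM at 3d, and 2635 and 2660 CPM at 30d. Both 30d libraries were below all others, and both 3d libraries above those at 0d. Between 3d and 30d the level differed by a log2FC of -0.17 (SE 0.040), 0.890 times the level at 3d, with an interval of -16.1% to -5.50%. This was the smallest p of the 10 genes in any comparison of 2 time points, 0.000876 unadjusted, and missed the threshold over all genes (edgeR adjusted p = 0.0721). DESeq2 called it (adjusted p = 0.00872), as did edgeR on the 3d and 30d libraries alone (adjusted p = 0.00611). With the trend with gene length removed it was not called (log2FC -0.16, edgeR adjusted p = 0.306). Under the 17 alternatives the log2FC ran from -0.17 to -0.16. Against 0d, Tubb3 differed at 30d by -0.090 (SE 0.040, edgeR adjusted p = 0.388).

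Stmn2 (chromosome 3, 8509527 to 8561604, + strand) codes for stathmin-2, a tubulin-binding protein of growing and regenerating axons. It had 1465 and 1507 CPM at 0d, 1436 and 1500 CPM at 1d, 1508 and 1500 CPM at 3d, and 1382 and 1444 CPM at 30d. The 30d libraries lay below both 0d and both 3d libraries. The log2FC was -0.017, 0.017 and -0.073 against 0d (SE 0.038 each), and -0.090 at 30d against 3d (SE 0.038, unadjusted p = 0.0317, edgeR adjusted p = 0.329). At 1d its interval ran from -6.59% to 4.55%.

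The ratio of Tubb3 to Map1a per kb was 8.15 and 9.26 at 0d, then 7.92 and 8.98 at 1d, then 8.56 and 8.62 at 3d, and finally 7.25 and 7.31 at 30d. The 30d libraries had the lowest ratios of the 8, below all 6 others, although the 0d libraries differed from each other by more than the gap between the lower of them and those at 30d. Stmn2 stayed between 0.454 and 0.491 of Tubb3 throughout.

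**Figure D3:**
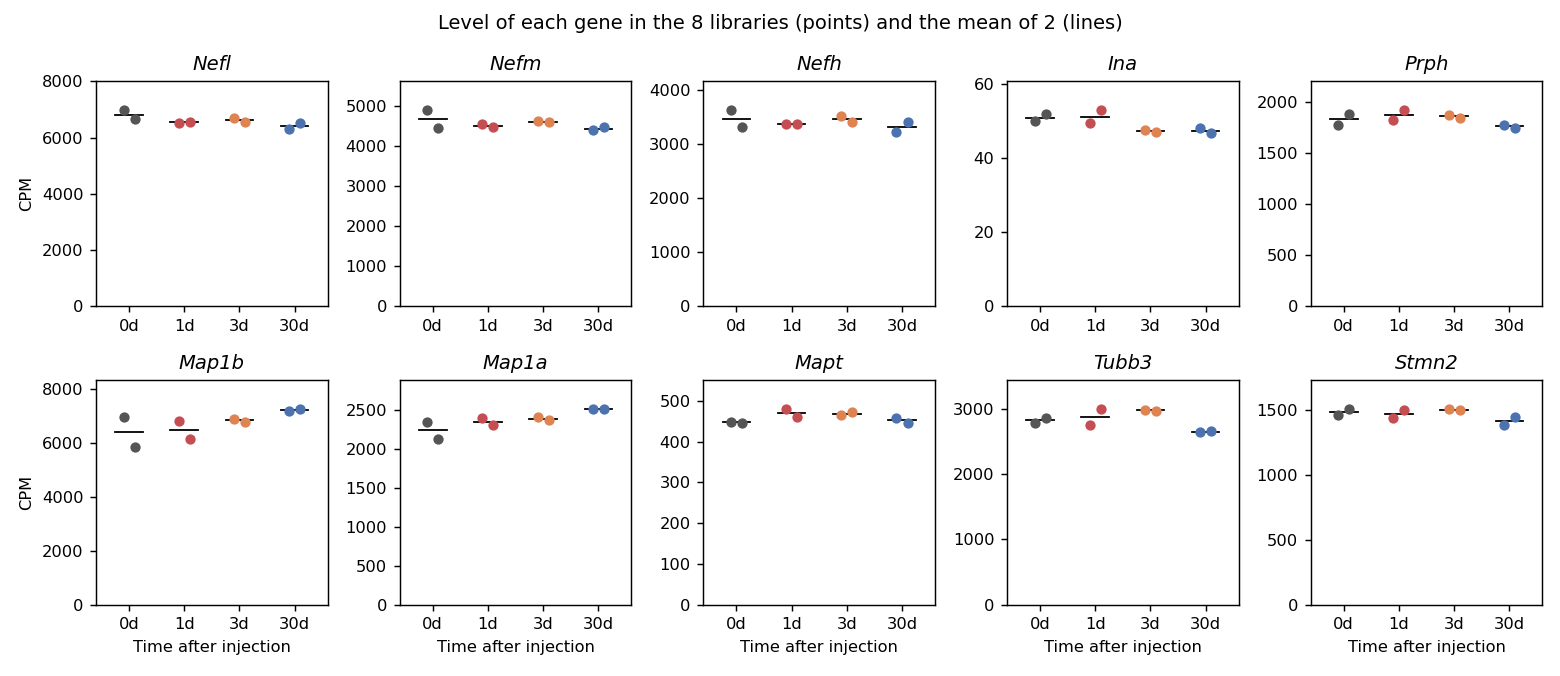
CPM of each gene in the 8 libraries by time point, on axes that start at 0; points are libraries and lines the mean of 2. The spread between time points is small beside the level of every gene, with Map1a and Map1b highest and Tubb3 lowest at 30d.

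**Figure D4:**
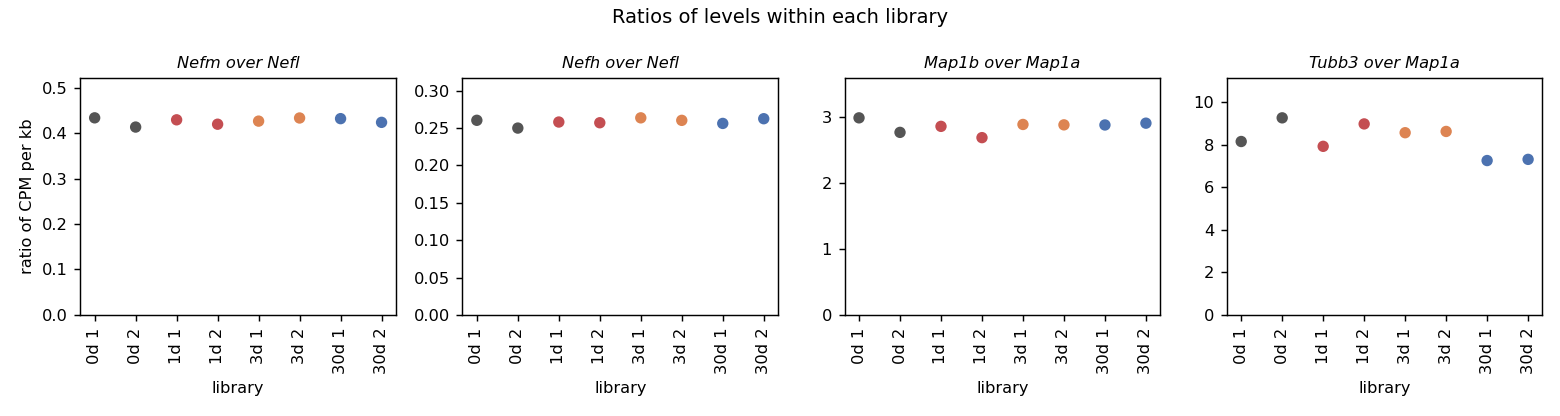
Ratios of CPM per kb within each of the 8 libraries, coloured by time point. The neurofilament ratios lie in a narrow band, and the ratio of Tubb3 to Map1a is lowest in both 30d libraries.

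At 1d against 0d, 0 of 10 genes were called by edgeR at an adjusted p under 0.05, where 0.346% of all tested genes were, and 0 had an unadjusted p under 0.05, where 4.47% of all genes did. The libraries of the 2 time points did not overlap for 2 of 10 genes, against 31.9% of all genes. At 3d the counts were 0 called (0.219% of all genes), 1 with an unadjusted p under 0.05, Map1a (5.94%), and 4 without overlap (39.5%). DESeq2 called 0 of the 10 at 1d (0.635% of all genes by DESeq2) and 0 at 3d (0.629%). A fit without the first 0d and the first 30d library was chosen after the data were seen and kept a lone library at both times. The 0d library kept was the lowest of all for Map1b and Map1a. Against it, the log2FC of Map1b was 0.22 at 3d and 0.31 at 30d, and that of Map1a 0.16 and 0.24. The widest 95% interval belonged to Map1b, from -12.6% to 16.5% at 1d and from -7.62% to 23.1% at 3d, and that of Ina at 3d reached down to -15.1%. The median size of the log2FC was 0.038 at 1d and 0.054 at 3d, against 0.076 and 0.081 over all tested genes, which were not matched for level.

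At 30d against 0d, 0 of 10 genes were called by edgeR (0.0231% of all genes) and 1 by DESeq2, Map1a (1.06% of all genes by DESeq2). An unadjusted p under 0.05 was found for 3 of them, Nefl and Tubb3 lower and Map1a higher (12.3% of all genes). For 7 of 10 the libraries did not overlap, against 39.6% of all genes. The triplet, Ina, Prph, Tubb3 and Stmn2 had negative differences and the 2 MAP1 genes and Mapt positive ones. The median size was 0.081, against 0.11 over all tested genes, which were not matched for level.

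Between the later time points, 3d against 1d, edgeR and DESeq2 called 0 of 10 (0.289% of all genes by edgeR and 0.635% by DESeq2). An unadjusted p under 0.05 was found for 0 (4.24%), and 3 did not overlap (37.6%). At 30d against 3d, edgeR called 0 (0.935%) and DESeq2 called 1, Tubb3 (2.18%). Tubb3 and Stmn2, both lower, had an unadjusted p under 0.05 (13%), and 8 of 10 did not overlap (46.4%). In the test of any difference among the 4 time points, edgeR called 0 (1.02%) and DESeq2 called 1, Tubb3 (2.95%), and 2 had an unadjusted p under 0.05, Map1a and Tubb3 (11%). The comparisons with 0d share the 0d libraries, and their values are not independent.

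**Figure D5:**
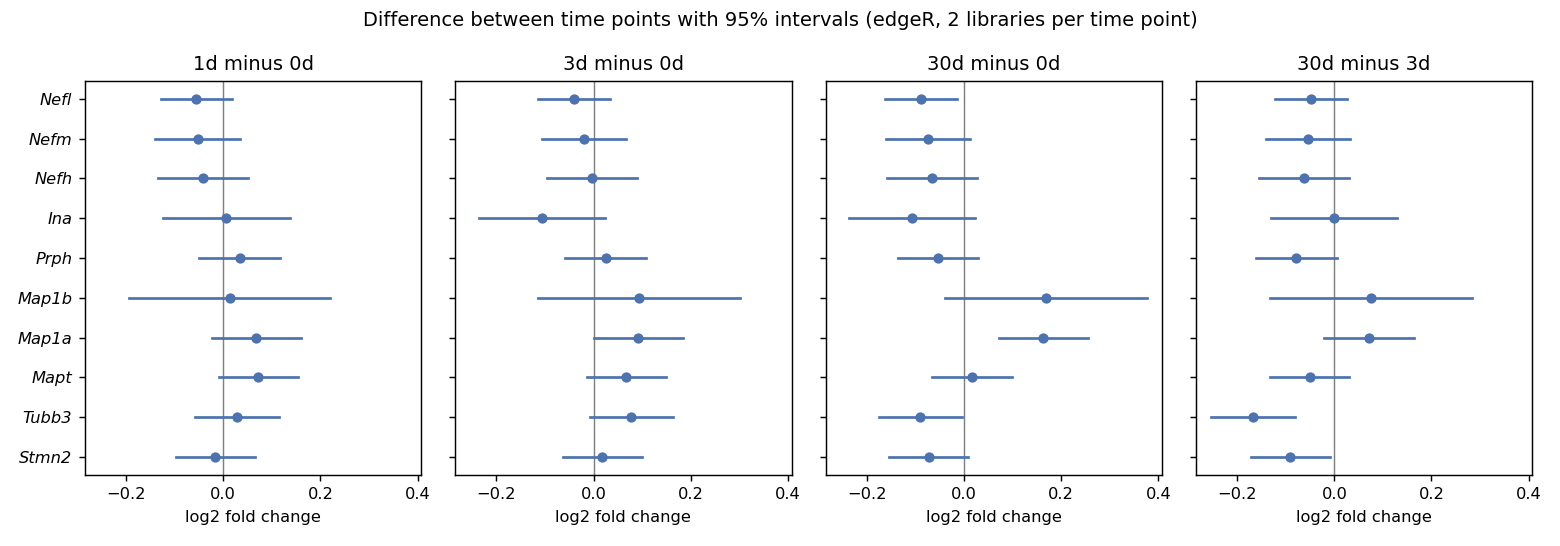
Log2 fold change of each gene, later minus earlier time point, for 4 comparisons; lines are 95% intervals from edgeR's fit, not adjusted for the number of genes. Most intervals include 0, with Map1a at 30d against 0d and Tubb3 at 30d against 3d farthest from it.

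The wider cytoskeleton was described by 86 related genes in 7 lists, all of them tested. At 1d, 3d and 30d against 0d and at 3d against 1d, edgeR called 0 of the 86, where it called 0.346%, 0.219%, 0.0231% and 0.289% of all tested genes. An unadjusted p under 0.05 was found for 2 of the 86 at 1d (4.47% of all genes), 12 at 3d (5.94%), 16 at 30d (12.3%) and 2 at 3d against 1d (4.24%). DESeq2 called 0 at 1d (0.635% of all genes), 0 at 3d (0.629%) and 0 at 3d against 1d (0.635%). At 30d against 0d it called 5 (Kif5a, Sptan1 and Ank2 higher, Stmn1 and Dynll1 lower), where it called 1.06% of all genes. At 30d against 3d edgeR called 2, both lower (0.935% of all genes), and an unadjusted p under 0.05 was found for 6 higher and 12 lower (13% of all genes in either direction). DESeq2 called 6 there, all lower (2.18% of all genes): these 2 and Tubb2a, Dpysl3, Dclk1 and Map7d2. These 4 and Sptan1 are named because DESeq2 called them, a choice made after their values were seen. Vim, the vimentin of glia and connective tissue cells, had 621 and 630 CPM at 3d and 526 and 540 CPM at 30d, a log2FC of -0.23 (SE 0.048, edgeR adjusted p = 0.0370). Dynll1, a light chain of the dynein motor of retrograde transport, had 207 and 201 CPM at 3d and 171 and 175 CPM at 30d, a log2FC of -0.24 (SE 0.051, edgeR adjusted p = 0.0409). The median log2FC of the 86 genes was 0.017, 0.024 and 0.0030 at 1d, 3d and 30d against 0d, and -0.023 at 30d against 3d, where the median over all tested genes was 0.00048.

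For the families, the shares of all genes at 30d against 3d were 13% at an unadjusted p under 0.05, 0.935% called by edgeR and 2.18% called by DESeq2, and at 30d against 0d they were 12.3%, 0.0231% and 1.06%. In all, 11 of the 12 other tubulins had a negative log2FC at 30d against 3d (3 at an unadjusted p under 0.05, 0 called by edgeR, 1 by DESeq2, Tubb2a). Against 0d at 30d, 9 of the 12 had a negative log2FC, and the values ran from Tuba8, at -0.49 (SE 0.21), to Tuba1c, at 0.46 (SE 0.15), both with fewer than 10 CPM. The 8 stathmins and CRMPs, which regulate tubulin assembly in growth cones, all had a negative log2FC at 30d against 3d (2 at an unadjusted p under 0.05, 0 called by edgeR, 1 by DESeq2, Dpysl3), with a median log2FC of -0.049. Among them Stmn1 was lowest at 30d against 0d, at -0.20 (SE 0.049, edgeR adjusted p = 0.139), and Dpysl5 highest, at 0.055 (SE 0.050). Of the 10 spectrins and ankyrins, the skeleton under the axonal membrane, 7 had a positive log2FC at 30d against 0d (4 at an unadjusted p under 0.05, 0 called by edgeR, 2 by DESeq2, Sptan1 and Ank2), led by Ank2 at 0.22 (SE 0.059, edgeR adjusted p = 0.188).

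Of the 17 microtubule-associated and plus-end proteins, 9 had positive and 8 negative log2FC at 30d against 0d, from Map2, a dendritic relative of tau, at 0.22 (SE 0.12), to Dcx, doublecortin, at -0.15 (SE 0.18). The 19 axonal transport motors ranged from Kif5a, the neuronal kinesin heavy chain, at 0.13 (SE 0.036, edgeR adjusted p = 0.170), to Dynll1, at -0.23 (SE 0.051), and 11 of them were positive. The 13 tubulin-modifying and severing enzymes lay between Atat1, the alpha-tubulin acetyltransferase, at 0.19 (SE 0.13), and Vash2, a tubulin carboxypeptidase, at -0.090 (SE 0.18). The 7 other intermediate filaments and their linkers lay between Plec, the linker plectin, at 0.17 (SE 0.055), and Nes, nestin, at -0.20 (SE 0.13). None of these was called by edgeR at 30d against 0d, and Kif5a and Dynll1 were called by DESeq2.

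Markers of the cell types of the ganglion were present throughout, and no marker of any of the 10 lists was at 0 in any library. The summed sensory neuron markers ranged from 6334 to 6777 CPM and those of large myelinated-fibre neurons from 992 to 1107 CPM. Satellite glia markers summed to 2851 and 2984 CPM at 30d, below the 3197 to 3464 CPM of the other 6 libraries. Of the 6 markers, 1 was called lower by edgeR at 30d against 0d, and this gene made up most of the sum. At 30d against 3d, 1 of the 6 was called lower as well. Against 0d at 30d, 5 of the 6 had a negative log2FC, among them Cdh19 at -0.0070, and Glul had 0.12. At 3d against 0d, Calca and Scn10a of the small unmyelinated-fibre neurons were called higher, by log2FC of 0.32 and 0.22 (edgeR adjusted p = 0.0237 and 0.0499), and Pvalb of the large myelinated-fibre neurons lower, by -0.33 (edgeR adjusted p = 0.0237). Between 3d and 30d, 2 of the 8 small-fibre markers were called lower (Calca and Tac1, log2FC -0.43 and -0.28, edgeR adjusted p = 0.00201 and 0.0110), 7 of the 8 had a negative log2FC and their median was -0.16. Of the 8 large myelinated-fibre markers, 7 had a positive log2FC there, with a median of 0.095 (0 called by edgeR, against 0.935% of all genes). An unadjusted p under 0.05 was found for 3 of them higher and 1 lower. It was found for 6 small-fibre markers, all lower, and for 13% of all genes. Macrophage markers ranged from 65.0 to 76.7 CPM in sum, although Cx3cr1 was called lower at 3d against 0d (log2FC -1.02, edgeR adjusted p = 0.00795) and against 1d (edgeR adjusted p = 0.0476). Endothelial markers ranged from 104 to 120 CPM. Of the fibroblast markers Lum was called lower at 1d (log2FC -0.49, edgeR adjusted p = 0.0326), and of the muscle markers Myh1 was called lower at 1d and at 3d (log2FC -1.47 and -1.61, edgeR adjusted p = 0.0324 and 0.0237) and higher at 30d against 3d (edgeR adjusted p = 0.0292). The part of all these marker differences in the values of the 10 genes was not tested. The totals ranged from 44123208 to 73580338 counts per library, and the replicates of a time point were not the same library deposited again, since the chi-square of their counts was 7.22 to 25.6 times its degrees of freedom.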

How the data were processed

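Counts per gene were deposited by the authors for 8 libraries in 1 table, without normalization. Adapters had been cut with cutadapt 2.10, alignment to mm10 used STAR 2.7.5a, and they had counted read pairs on UCSC exons with featureCounts 2.0.1. No strand option was set, and a pair on overlapping genes was given to each. Groups came from the labels.

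Genes were filtered by edgeR 4.0.16 (filterByExpr), which left out 7093 genes, library sizes were scaled by TMM (factors 0.993 to 1.01), and 5 pairs of time points and their joint difference were tested in one quasi-likelihood fit in R 4.3.3, adjusted by Benjamini-Hochberg over 17328 genes. Pools of a time point varied by 8.85% (common biological coefficient of variation). The standard error is the size of the log2FC over the root of F. CPM use the scaled counts, with a prior of 2 on the log2 scale. The fit was tested on simulated counts.

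The genes, lists and tests were chosen with earlier results of these data known. Named were the 10 genes, every related gene called, the highest and lowest of each list at 30d against 0d, and the 5 genes most like the triplet. Alternatives were RLE scaling, no filter, DESeq2 1.42.0, no robust estimation, edgeR's newer dispersion method, the compared groups alone, a replicate block, removal of a length trend (spline, 5 degrees of freedom), and each library left out. Replicate numbers were checked and did not pair the samples. Overlaps of exons were taken from the mm10 annotation. Results for some listed genes are left out and not reported here.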

Additional observations from a re-analysis of the deposited data

How the results depend on the processing

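With 2 pools per time point, the spread between pools limits what can be seen: the standard errors of the members' log2FC were 0.035 to 0.085. No member was called at 1d against 0d or at 3d against 1d under any alternative run. At 30d against 0d the count of members called was 0, and it was 1 without the filter on low counts and 1 with DESeq2 (Map1a, higher, each time). With each library left out in turn it ranged from 0 to 2, the 2 being Map1b and Map1a without 0d replicate 1, where 0.444% of all genes were called. At 30d against 3d the count was 1, Tubb3 lower, without the filter, with DESeq2, with the compared groups alone and with the replicate number as a block, and it ranged from 0 to 1 with a library left out; it was 1 without either 0d or either 1d library, and 0 without any of the 3d or 30d libraries. In the test of any difference it was 1 without the filter and 1 with DESeq2 (Tubb3), and 0 to 2 with a library left out. Calls rose over all genes too. At 30d against 0d there were 4 in the fit reported, 177 without the filter and 184 with DESeq2. At 30d against 3d there were 162, then 358 without the filter, 378 with DESeq2, 301 with the compared groups alone, 225 with the block and 255 without 0d replicate 1. The joint test gave 177, then 463 without the filter, 512 with DESeq2 and 253 without 0d replicate 1, where Map1b and Map1a were called. The cause of these shifts was not tested. 

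One alternative was chosen after seeing the data, leaving out both 0d replicate 1 and 30d replicate 1, which held the highest and the lowest sum of Schwann cell markers. They were also the highest and the lowest library for Nefl, Nefm and Nefh. The lone libraries were then assumed to vary like the other groups. The 0d library kept was the lowest of all for Map1b and Map1a. In this fit the log2FC at 30d against 0d was 0.31 for Map1b and 0.24 for Map1a, and that of Tubb3 at 30d against 3d was -0.16. In it the log2FC changed sign at 1d against 0d to 0.019 for Nefm, 0.024 for Nefh, -0.019 for Ina and -0.0029 for Prph, at 3d against 0d to 0.050 for Nefm, 0.061 for Nefh, -0.014 for Prph and -0.0030 for Stmn2, at 30d against 0d to 0.0064 for Nefm, 0.041 for Nefh and -0.0014 for Mapt. 

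Replicate numbers did not pair the libraries: the correlations of deviations from the group means between equal numbers were -0.014 to 0.044. With the replicate block, the count of members called changed only at 30d against 3d, from 0 to 1. Signs also turned under other alternatives, and not only for values near 0. That of Map1b at 3d against 0d, 0.093 in the reported fit, is among those below. Removing the length trend gave log2FC of -0.0048 for Ina at 1d against 0d, -0.024 for Mapt at 30d against 0d, -0.018 for Map1a at 3d against 1d and -0.0032 for Map1a at 30d against 3d. For Ina at 30d against 3d, RLE scaling and DESeq2 both gave 0.0023. With a library left out, the log2FC at 1d against 0d ran from -0.12 to 0.018 for Nefm, -0.10 to 0.023 for Nefh, -0.043 to 0.053 for Ina, -0.0038 to 0.073 for Prph, -0.11 to 0.14 for Map1b, -0.034 to 0.087 for Tubb3 and -0.049 to 0.014 for Stmn2. With a library left out, the log2FC at 3d against 0d ran from -0.087 to 0.053 for Nefm, -0.065 to 0.064 for Nefh, -0.011 to 0.064 for Prph and -0.027 to 0.23 for Map1b. With a library left out, the log2FC at 30d against 0d ran from -0.13 to 0.0020 for Nefh and -0.0028 to 0.035 for Mapt. With a library left out, the log2FC at 3d against 1d ran from -0.044 to 0.027 for Prph, -0.0054 to 0.054 for Map1a, -0.035 to 0.025 for Mapt and -0.0093 to 0.11 for Tubb3. With a library left out, the log2FC at 30d against 3d ran from -0.021 to 0.021 for Ina. Of 850 member values under the alternatives, 43 changed sign and 17 passed the threshold that the reported fit missed; all 17 belonged to Map1b, Map1a or Tubb3.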

Other observations

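The genes that share exon sequence with the 10 were measured as well. A230070E04Rik, annotated over part of Nefm, was at 1943 to 2166 CPM, and its log2FC at 30d against 0d was -0.080, beside -0.074 for Nefm. Ap1b1, which overlaps Nefh, was at 617 to 686 CPM with a log2FC of -0.068. Ppip5k1 shares 272 bases, 2.28% of the counted length, with Map1a, and was at 102 to 119 CPM, against at least 2136 CPM for Map1a. None was called by edgeR at 30d against 0d (adjusted p = 0.455, 0.597 and 0.417, in that order), nor was Nt5c2, the neighbour of Ina (adjusted p = 0.775). Reads without strand in the shared stretches cannot be assigned to either gene of a pair.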
